A study of Mus musculus with 3 samples.

Results

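Tsc22d3, Fkbp5, Zbtb16, Klf9, Per1, Txnip, Sgk1, Ddit4 and Dusp1 are genes that respond to glucocorticoid hormone in many tissues. They are 9 of the 31253 genes in the count matrices of mouse jaw cells. The set was selected on the levels of Tsc22d3 and Txnip, which had stood high in the 7d library of these same data. The rule set no threshold, and the other 7 genes named are known to respond to glucocorticoids as well. All values of the 9 are therefore a description. The question is whether they were higher together at 7d, and in which cell classes.

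The series holds 3 single-cell RNA libraries, 1 per group, each made from the jaws of 8 pooled male wild-type C57BL/6 mice of 10 weeks. The Ctrl mice were not irradiated. The 1d and 7d mice received 10 Gy to the head and neck and were killed 1 or 7 days later. All tissue was minced, digested with collagenase, frozen and thawed before droplet capture. With 1 library a group there are no replicates and no test between groups, the mice of a pool cannot be told apart, and every interval below is an exact 95% interval that covers counting error only.

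Glucocorticoids such as corticosterone, the main one in mice, bind the glucocorticoid receptor Nr3c1. Chaperones hold the unbound receptor in the cytoplasm. The bound receptor enters the nucleus, binds paired AGAACA and TGTTCT arms of a response element as a dimer, raises the transcription of one set of genes and lowers that of many inflammatory genes. In bone, glucocorticoids act on osteoblasts and osteoclasts, and in lymphoid tissue they shape the survival and the trafficking of lymphocytes. Most of the 9 genes also respond to other inputs: Per1 to the circadian clock, Txnip and Klf9 to metabolic or hormonal cues, Sgk1 to osmotic stress and growth factors, Ddit4 to hypoxia and DNA damage, and Dusp1 to stress kinases and tissue handling.

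The libraries hold 41048084 (Ctrl), 46119700 (1d) and 49998293 (7d) unique molecular identifiers (UMIs), each standing for 1 captured RNA molecule. After filtering, 8604, 4879 and 6094 cells were kept, with medians of 2417, 5022 and 3816 UMIs. Pairs of libraries shared between 9 and 15 cell barcodes. Of the 26 clusters, 23 could be named from marker genes, in 16 classes, and every class name below stands for cells like that type. In 10 classes both comparisons had at least 30 cells in each library. The numbers of cells differed widely between libraries: the 10 classes ranged from 51 to 2992 cells in Ctrl, from 50 to 1259 in 1d and from 61 to 1869 in 7d. The mesenchymal class was led by the bone matrix genes Bglap, Bglap2, Col1a1 and Ibsp together with Col2a1, and had 381, 105 and 61 cells.

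The promoters of 4 of the genes are shown because they carry the rarest matches among 6 sequence motifs searched on both strands. RefSeq promoters (GRCm38.p6) were matched by symbol for 8 of the 9 genes, in 16 windows of 300 bases. Below are the 250 bases before the annotated start, 5′ to 3′ on the strand of the gene, with motif matches in capitals: GTAAACA (a FOXO motif), CACGTG (the E-box of clock factors), TGACGTCA and its shorter form TGACG (cAMP element), AGAACA or its reverse complement TGTTCT (1 arm of a glucocorticoid element). They lie at chr3:96557707-96557956 (plus strand) for Txnip, chr19:23140976-23141225 (plus) for Klf9, chr10:21993640-21993889 (plus) for Sgk1 and chr17:26508473-26508722 (minus) for Dusp1. The Sgk1 and Dusp1 starts shown lie within the span of their gene.
Txnip: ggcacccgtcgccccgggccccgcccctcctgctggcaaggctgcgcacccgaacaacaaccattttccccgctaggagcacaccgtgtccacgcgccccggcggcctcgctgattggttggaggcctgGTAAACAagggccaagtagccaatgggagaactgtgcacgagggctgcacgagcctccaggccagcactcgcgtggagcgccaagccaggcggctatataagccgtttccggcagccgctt
Klf9: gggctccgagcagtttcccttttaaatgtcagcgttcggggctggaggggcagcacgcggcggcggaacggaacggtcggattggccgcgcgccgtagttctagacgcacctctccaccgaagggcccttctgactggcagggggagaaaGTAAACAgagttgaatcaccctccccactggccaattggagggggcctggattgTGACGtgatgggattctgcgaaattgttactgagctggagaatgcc
Sgk1: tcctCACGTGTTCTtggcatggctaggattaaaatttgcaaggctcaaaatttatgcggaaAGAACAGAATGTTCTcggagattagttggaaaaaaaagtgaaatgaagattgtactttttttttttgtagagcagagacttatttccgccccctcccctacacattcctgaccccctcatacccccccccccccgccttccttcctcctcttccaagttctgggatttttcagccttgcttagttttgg
Dusp1: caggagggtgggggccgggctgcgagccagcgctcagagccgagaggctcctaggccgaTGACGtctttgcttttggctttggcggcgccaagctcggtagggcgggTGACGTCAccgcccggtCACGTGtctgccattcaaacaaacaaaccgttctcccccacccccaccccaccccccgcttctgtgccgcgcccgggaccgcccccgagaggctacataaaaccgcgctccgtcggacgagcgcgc
The Sgk1 window was the only one of the 16 to hold both arms with any 3 bases between them, starting 189 bases before the start, and only 3 of 32851 promoters of the same length did (0.00913%). Its CACGTG, 246 bases before the start, shares letters with another TGTTCT. The AGAACA arm alone was in 19% of all promoters, and among the 8 genes in those of Sgk1 and Tsc22d3. TGACGTCA was in 1.79% of promoters and, among the 8 genes, in that of Dusp1. GTAAACA was in 3.65% and, among the 8, in those of Klf9 and Txnip, 100 and 121 bases before the start. CACGTG was in 7.15%, and in the promoters of Dusp1, Fkbp5, Per1 and Sgk1. TGACG was in 20.8%, and in those of Dusp1, Klf9, Per1, Sgk1 and Tsc22d3. A match describes letters in a window and no binding was measured.

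The 9 genes did not move as 1 block at 7d. Levels are given as counts per 1000000 UMIs (CPM), added up over all cells of a class, and a ratio divides the level at 7d or 1d by that in Ctrl. A gene is called higher at a ratio of 2 or more and lower at 0.5 or less. Of the 85 pairs of gene and class with at least 20 UMIs over Ctrl and 7d, 31 were higher (36.5%, against 10.7% of the pairs of all genes) and 5 were lower (5.88%, against 8.88%). Tsc22d3 and Txnip, on which the set was selected, gave 12 of the 31 higher pairs, and the other 7 genes gave 19 of 65 (29.2%). Tsc22d3, Fkbp5, Klf9 and Txnip had ratios above 1 in 10 of 10 classes, except that under 1 or more other settings 1 class of each fell below 1 (Tsc22d3 in mast cells and basophils, Fkbp5 in neutrophils, Klf9 in mesenchymal cells and Txnip in neutrophil precursors). Per1 was above 1 in 8, Dusp1 in 7, Sgk1 in 6 and Ddit4 in 6. Zbtb16 was above 1 in 3 of the 5 classes where it could be measured. All measured genes of the set stood above 1 together in 3 of the 10 classes: B cells (8 of 8), NK cells (9 of 9) and neutrophil precursors (8 of 8). The whole counting interval lay above 1 for fewer genes: 7 of 8, 6 of 9 and 5 of 8. In NK cells, for instance, Ddit4 hardly differed, with 47.8 CPM in Ctrl and 49.4 in 7d. For comparison, 42.7%, 45.2% and 73.3% of all genes stood above 1 in those 3 classes. Under the 14 alternatives that can change a ratio, the B cells kept all measured genes above 1 in 14, the NK cells in 12 (Ddit4 fell to as low as 0.884) and the neutrophil precursors in 7. The NK class is 1 cluster, so the alternative that stays within 1 cluster could not change it. In the precursors Dusp1 fell to as low as 0.537, Per1 to 0.716, Ddit4 to 0.76, Sgk1 to 0.807 and Txnip to 0.917.

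**Figure D1:**
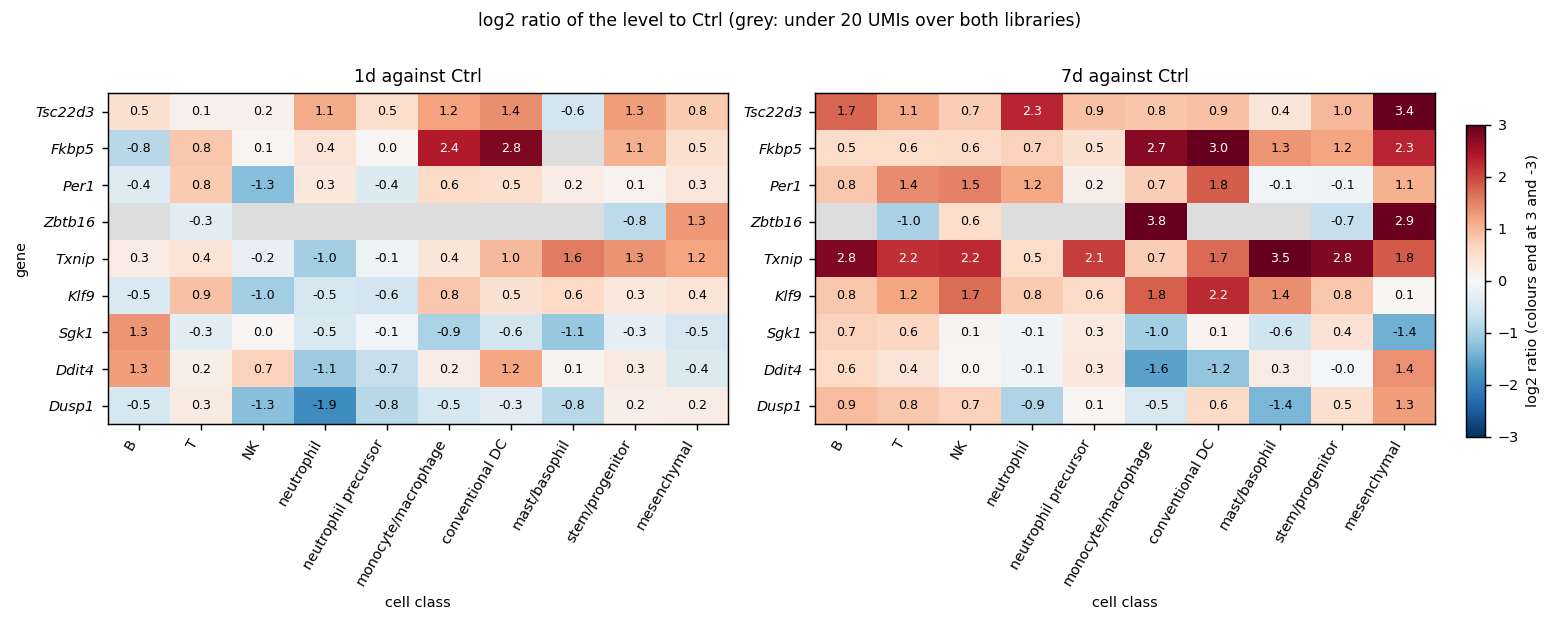
Log2 ratio of the level to Ctrl for each of the 9 genes (vertical axis) in each of 10 cell classes (horizontal axis), at 1d and at 7d; grey marks pairs under 20 UMIs over both libraries, and colours end at 3 and -3. At 7d and these settings the Tsc22d3, Fkbp5, Txnip and Klf9 cells are above 0 in all 10 classes, while Sgk1, Ddit4 and Dusp1 hold both signs.

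Tsc22d3 encodes GILZ, a leucine zipper protein that restrains NF-kB and AP-1 and is among the most regular glucocorticoid targets in leukocytes. Its gene spans chrX:140539528-140600659 (GRCm38, minus strand). The mesenchymal class had levels of 116 CPM in Ctrl, 201 in 1d and 1185 in 7d, a 7d ratio of 10.2 (9.05 to 11.5). After each cell was thinned to 1000 UMIs, 60 of 376 mesenchymal cells in Ctrl (16%, interval 12.4 to 20.1) held a Tsc22d3 UMI, against 41 of 61 in 7d (67.2%, 54 to 78.7). Unthinned, the shares were 51.2% and 96.7%. The cell with the most Tsc22d3 held 9.42% of its UMIs there, so the level did not rest on a few cells.

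In neutrophils the Tsc22d3 level was 17.7 CPM in Ctrl, 38.3 in 1d and 86.3 in 7d, a 7d ratio of 4.87 (3.85 to 6.14). In B cells it was 199, 273 and 664 CPM, a ratio of 3.33 (3.00 to 3.71), and in T cells 129, 142 and 285 CPM, a ratio of 2.22 (2.02 to 2.44). These were the other 3 classes past 2-fold. The thinned share of B cells with a Tsc22d3 UMI was 16.6% in Ctrl and 42.1% in 7d, and that of T cells 11.4% and 23%. Erythroid cells, the class with the lowest thinned share at 7d, gave 3 of 365 cells (0.822%, 0.17 to 2.38). Haemoglobin took 557299 CPM in them, so fewer of their UMIs came from other genes. Their share is therefore no floor for the lymphocyte shares. The stem and progenitor class lay just under the 2-fold line, at 1.98 (1.48 to 2.72), from 30.6 CPM in Ctrl to 60.7 in 7d, but at 1.03 with cells weighted equally. Mast cells and basophils had the lowest ratio, 1.29, with an interval (0.633 to 2.88) that covers 1.

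Tsc22d3 was ordered by class in Ctrl with B cells first (199 CPM), then T cells (129), mesenchymal cells (116), NK cells (106), conventional dendritic cells (73.3), monocytes and macrophages (59.4), mast cells and basophils (40.3), stem and progenitor cells (30.6), neutrophils (17.7) and neutrophil precursors (16.9). Only B and T cells, and stem cells and neutrophils, are neighbours in that order whose counting intervals do not overlap. At 7d the mesenchymal class stood first of the 10, ahead of B cells. Within classes the direction was shared: in 18 of 18 clusters with enough UMIs the 7d ratio was above 1, from 1.29 to 10.2.

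Fkbp5 encodes the immunophilin FKBP51, a co-chaperone that lowers hormone binding by the receptor and is itself induced by it. Its highest ratios were in myeloid antigen-presenting cells. Monocytes and macrophages had 9.06 CPM in Ctrl, 47.3 in 1d and 60.1 in 7d, a 7d ratio of 6.63 (4.11 to 11.2). Conventional dendritic cells had 6.87, 48.2 and 54.2 CPM, a 7d ratio of 7.88 (3.42 to 22.3) that rests on 6 UMIs in Ctrl. In both classes the 1d library was already high, with ratios of 5.22 and 7.01. The mesenchymal ratio at 7d was 4.88 (3.12 to 7.59), from 13.3 to 65 CPM, with 18.6 CPM at 1d, and it was 3.04 with cells weighted equally.

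Lymphocytes gave smaller Fkbp5 ratios at 7d, 1.45 in B cells, 1.47 in T cells and 1.48 in NK cells. In neutrophils the class ratio of 1.61 (0.988 to 2.54) joined unlike clusters: it was 4.19 and 4.15 in the clusters numbered 1 and 4, on 3 and 6 UMIs at 7d, and 0.797 in cluster 5, on 15. Cluster 5, led by granule genes such as Ltf and Ngp, held 308 of 2992 neutrophils in Ctrl and 205 of 357 in 7d.

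Zbtb16 encodes PLZF, a zinc finger repressor of innate-like lymphocytes and progenitors that is sharply induced by glucocorticoids in stromal cells. It was scarce: 110, 72 and 184 UMIs over all cells of Ctrl, 1d and 7d. In the mesenchymal class 20, 15 and 25 UMIs were counted, which are 5.43, 13.3 and 41.7 CPM and a 7d ratio of 7.67 (4.09 to 14.6), or 4.5 with cells weighted equally. Monocytes and macrophages had 2, 13 and 24 UMIs, a 7d ratio of 13.5 with a wide interval (3.35 to 118), or 5.9 with doublets kept. T cells stood the other way at 49, 6 and 37 UMIs, a ratio of 0.513 (0.326 to 0.803). In B cells the 3 libraries held 1, 0 and 0 UMIs, so no ratio was taken.

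Klf9, a Krüppel-like repressor that glucocorticoids and thyroid hormone induce, was higher in 5 classes at 7d. Its ratios were 4.69 (2.83 to 8.22) in conventional dendritic cells, 3.44 (2.82 to 4.21) in monocytes and macrophages, 3.20 (2.37 to 4.40) in NK cells, 2.63 in mast cells and basophils and 2.28 in T cells. With cells thinned to 1000 UMIs the dendritic cell ratio was 3.08. Monocytes and macrophages went from 61.2 CPM in Ctrl to 107 in 1d and 210 in 7d. The mesenchymal class, where Klf9 was by far most abundant, hardly differed: 697 CPM in Ctrl, 923 in 1d and 722 in 7d, a 7d ratio of 1.04 (0.933 to 1.15). That last ratio falls under 1 with TMM scaling, with another denominator, after centring on the median gene, after thinning, with doublets kept and with finer clusters. The mesenchymal class therefore had the largest Tsc22d3 ratio and the smallest Klf9 ratio of the 10.

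Per1 is a core clock repressor with a glucocorticoid-induced and a cAMP-induced component. It was higher in conventional dendritic cells (ratio 3.52, 2.25 to 5.73), NK cells (2.87, 2.41 to 3.43), T cells (2.69, 2.38 to 3.03), neutrophils (2.25, 1.95 to 2.59) and mesenchymal cells (2.08, 1.5 to 2.85) at 7d. NK cells had 89.8 CPM in Ctrl, 36.8 in 1d and 257 in 7d, so the 2 irradiated libraries stood on opposite sides of Ctrl. T cells had 75.4, 129 and 202 CPM. With TMM scaling the neutrophil ratio was 1.99 and the mesenchymal ratio 1.66, both under the 2-fold line. The stem and progenitor ratio was 0.928 (0.698 to 1.25), or 2.24 with thinned cells, and that of mast cells and basophils 0.94 (0.514 to 1.82). Other clock genes, a list of 18 without Per1, had 32 of 122 measured pairs higher at 7d (26.2%, against 10.7% of the pairs of all genes) and 10 lower (8.2%, against 8.88%). Their median ratios over classes were 2.68 for Per3, 2.06 for Cry2, 2.77 for Nr1d1 and 2.01 for Ciart, and 0.712 for the output gene Dbp. The hour at which the mice were killed is not given in the sources used here, and the part of the clock in the Per1 ratios was not tested.

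Txnip encodes a thioredoxin-binding arrestin that limits glucose uptake, and it had the widest shift of the set. It was higher at 7d in 8 of 10 classes. B cells had 104 CPM in Ctrl, 124 in 1d and 711 in 7d, a ratio of 6.83 (6.02 to 7.75). T cells had 84, 112 and 386 CPM, a ratio of 4.60 (4.13 to 5.14), and NK cells 60.8, 51.5 and 288 CPM, a ratio of 4.74 (3.86 to 5.87). In all 3 lymphocyte classes, taken whole, the 1d library lay near Ctrl and the 7d library far above both. The T cell clusters were split at 1d. Cluster 6 had 85.2 CPM in Ctrl and 199 in 1d, where 1 cell held 27.1% of the UMIs. Cluster 3 had 85.9 and 69.8 CPM, and cluster 13 had 77.3 and 56. The thinned share of T cells with a Txnip UMI was 6.78% in Ctrl, 3.73% in 1d and 28.2% in 7d.

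Mast cells and basophils had the largest Txnip ratio, 11.3 (6.24 to 22.8), from 44.3 CPM in Ctrl (11 UMIs) to 130 in 1d and 500 in 7d. Stem and progenitor cells followed with 22.5, 56.7 and 154 CPM and a ratio of 6.84 (4.91 to 9.80), which was 2.87 with cells thinned to 1000 UMIs. Neutrophil precursors had a ratio of 4.22 (3.34 to 5.41), on 33.8, 30.5 and 143 CPM. With cells thinned to 1000 UMIs, 11 of 74 precursor cells in Ctrl (14.9%) and 72 of 518 in 7d (13.9%) held a Txnip UMI, and the ratio of thinned sums was 0.917. The unthinned shares were 45.3% and 73.7%, at medians of 30352 and 18302 UMIs, so the precursor value depends on the thinning. Neutrophils began highest, at 298 CPM in Ctrl, against 147 in 1d and 436 in 7d. Their 7d ratio was 1.46 as a class but 1.88, 2.53 and 3.36 within clusters 1, 4 and 5.

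**Figure D2:**
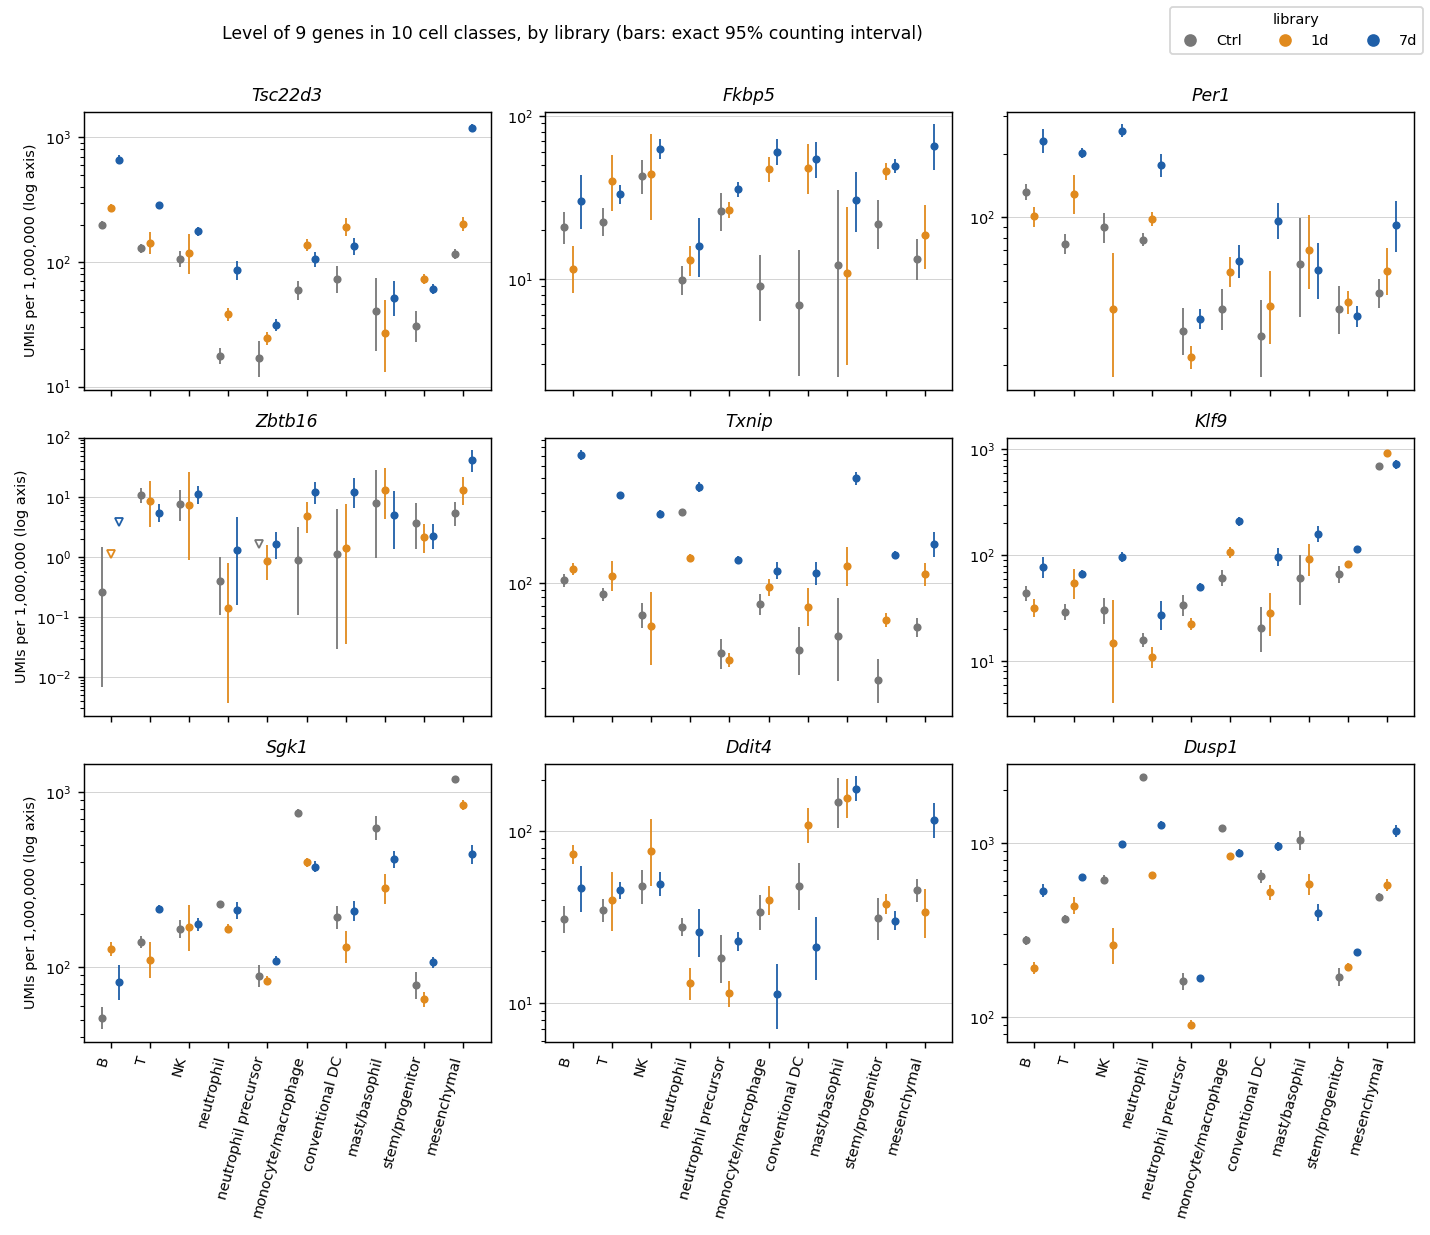
Level of each of the 9 genes (UMIs per 1000000, log axis) in 10 cell classes for the Ctrl, 1d and 7d libraries, 1 point per library, with bars for the exact 95% counting interval; open triangles mark the upper limit where no UMI was counted. The mesenchymal point of Tsc22d3 in 7d stands at 1185, above every other Tsc22d3 point, and the Sgk1 points of the mesenchymal class go from 1196 in Ctrl to 440 in 7d.

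Sgk1 encodes a serum- and hormone-regulated kinase that acts on ion channels. Its ratio was above 1 in 6 of 10 classes at 7d, but no class was higher and 2 were lower. Mesenchymal cells had 1196 CPM in Ctrl, 841 in 1d and 440 in 7d, a ratio of 0.368 (0.324 to 0.417). Monocytes and macrophages had 763, 397 and 374 CPM, a ratio of 0.490 (0.449 to 0.535), or 0.526 without haemoglobin, mitochondrial and ribosomal UMIs in the denominator. In both classes the 1d library was already below Ctrl. T cells (1.54) and B cells (1.61) stood above 1 at 7d, within 2-fold. So in the mesenchymal class Tsc22d3 and Sgk1, both known receptor targets, stood on opposite sides of Ctrl.

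A further large source of Sgk1 was cluster 16, which stayed unnamed and was led by Bmp2, Enpp2, Ptn, Sox9 and Tnc. It held 32.1% of the Sgk1 UMIs of Ctrl cells against 7.34% of all UMIs. Its level was 2036 CPM in Ctrl (267 cells), 1695 in 1d (120 cells) and 775 in 7d (25 cells). With 25 cells at 7d it was too small to be compared there.

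Ddit4, which encodes REDD1, an inhibitor of mTORC1, split by class. At 7d it was lower in monocytes and macrophages, with 34, 39.8 and 11.2 CPM in Ctrl, 1d and 7d and a ratio of 0.330 (0.195 to 0.536). It was also lower in conventional dendritic cells, with 48.1, 109 and 21.3 CPM and a ratio of 0.443 (0.257 to 0.749). In the mesenchymal class it was higher, with 45.4, 33.7 and 117 CPM and a ratio of 2.57 (1.92 to 3.42), though 3 of 61 cells held a UMI after thinning, 4.92% against 3.99% in Ctrl, and the ratio of thinned sums was 1.45. The remaining 7 classes lay between 0.932 and 1.52. The myeloid classes with the largest Fkbp5 ratios were thus those with the smallest Ddit4 ratios.

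Dusp1, a phosphatase that switches off the p38 and JNK kinases and responds quickly to stress, also stood on both sides of Ctrl. Neutrophils had 2380 CPM in Ctrl, 657 in 1d and 1271 in 7d, a 7d ratio of 0.534 (0.510 to 0.560). Within neutrophil clusters 1, 4 and 5 that ratio was 1.28, 0.944 and 0.901. The mesenchymal class was the only one of the 10 to be higher, from 489 CPM in Ctrl and 571 in 1d to 1167 in 7d (2.39, 2.18 to 2.60), which was 1.62 after thinning. Mast cells and basophils were lower, with 1031, 577 and 398 CPM (0.386, 0.326 to 0.457), which was 0.712 after thinning. B cells (1.93), T cells (1.75) and NK cells (1.61) stood between 1 and 2.

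**Figure D3:**
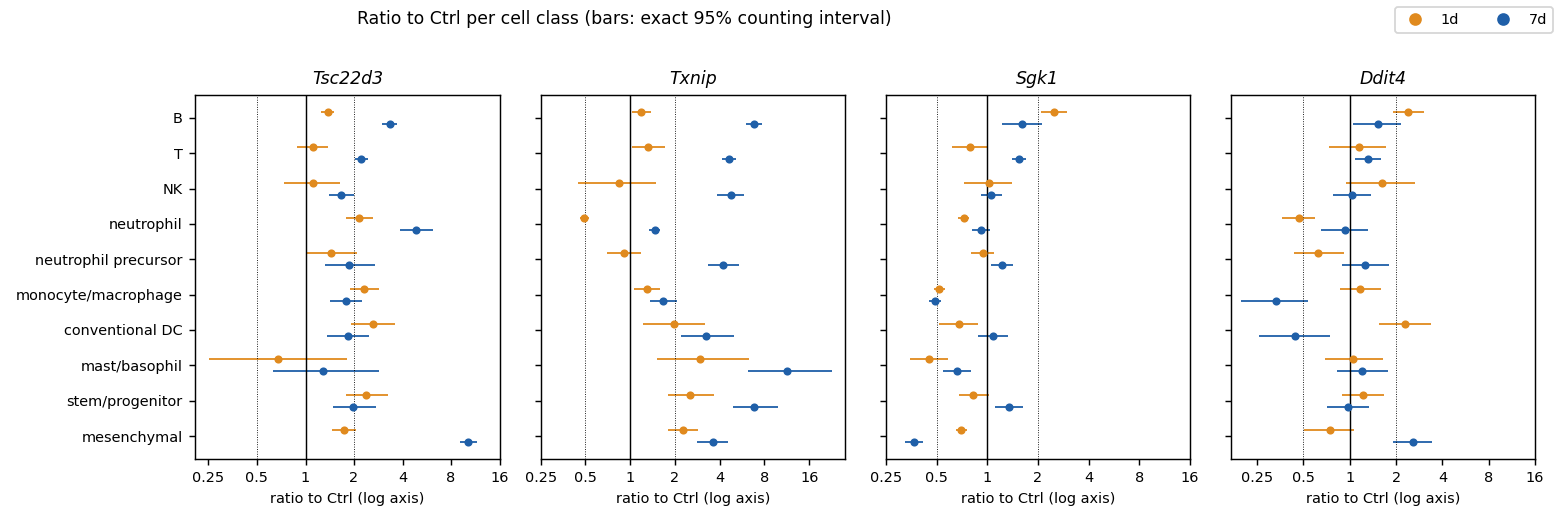
Ratio to Ctrl (log axis) in each cell class, drawn per gene as a point with its exact 95% counting interval, for the 1d and the 7d library. The Tsc22d3 point of the mesenchymal class at 7d stands at 10.2 and the Txnip point of mast cells and basophils at 11.3, whose interval of 6.24 to 22.8 is far wider.

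Read by class, the mesenchymal cells had 7 of 9 genes higher at 7d and 1 lower, where 16.9% of all their genes were higher and 12.3% lower. That count was 5 of 9 with TMM scaling or with cells weighted equally, and 2 of the 7 still measured (Tsc22d3 and Per1) after thinning. Conventional dendritic cells had 4 of 8 higher (8.9% of all genes) and T cells 4 of 9 (3.99%). NK cells, with 3 of 9 (5.01%), and monocytes and macrophages, also 3 of 9 (8.45%), followed. B cells had 2 of 8 (4.06%), neutrophils 2 of 8 (11.7%), and stem and progenitor cells 2 of 9 (8.02%). The 2 of B cells were Tsc22d3 and Txnip, on which the set was selected, and both genes count in the other classes too. Mast cells and basophils had 3 of 8 where 26.2% of all genes were higher, and neutrophil precursors 1 of 8 (Txnip) where 19.5% were. In those 2 classes the count is near the background, and the median of all genes itself stood at 0.39 and 0.43 on the log2 scale, against 0.19 in mesenchymal cells and -0.11 in T cells. Lower genes were 2 of 9 in monocytes and macrophages (9.06% of all genes), 1 of 8 in conventional dendritic cells (10.6%) and 1 of 8 in mast cells and basophils (7.27%). The median log2 ratio of the set was above 0 in all 10 classes, from 0.31 in mast cells and basophils to 1.36 in mesenchymal cells. This median includes Tsc22d3 and Txnip, which themselves stood above 1 in all 10, and it was not taken without them. In mast cells and basophils (0.309 against 0.393) and in neutrophil precursors (0.388 against 0.426) it lay below the median of all genes.

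At 1d the set was more divided. Of 82 pairs, 14 were higher (17.1%, against 7.38% of the pairs of all genes) and 7 lower (8.54%, against 6.32%). Without Tsc22d3 and Txnip, 7 of 62 were higher (11.3%). Tsc22d3 had a ratio above 1 in 9 of 10 classes and Fkbp5 in 8 of 9, while Sgk1 did so in 2 of 10 and Dusp1 in 3 of 10. These counts depend on the settings. Under 1 or more others Tsc22d3 fell below 1 in B cells (0.703), NK cells (0.646) and neutrophil precursors (0.974). Fkbp5 did so in NK cells (0.919), neutrophils (0.817) and neutrophil precursors (0.859), and rose above 1 in B cells (1.13). Some Sgk1 and Dusp1 ratios crossed 1 as well. Tsc22d3 was past 2-fold in conventional dendritic cells (2.61), stem and progenitor cells (2.38), monocytes and macrophages (2.31) and neutrophils (2.16). In monocytes and macrophages and in dendritic cells its 1d level was above its 7d level (137 against 105 CPM, and 191 against 134). In B cells, T cells, mesenchymal cells and neutrophils the order was the reverse. Both comparisons use the same Ctrl library, so their ratios are given side by side and no correlation between them was taken.

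The B cells of 1d were mostly cluster 8, which is led by Ly6d, Cd79b and Rag1 and held 918 of 1259 cells there against 42 of 1786 in Ctrl. As a class, B cells had 1d ratios of 2.49 for Sgk1 and 2.40 for Ddit4. Within cluster 0 those ratios were 0.731 and 0.258, and within cluster 18 they were 0.564 and 0.390. In cluster 8 Sgk1 stood at 1.44 and Ddit4 at 7.94, the latter against 1 UMI in Ctrl. Tsc22d3 went from 179 CPM in Ctrl to 126 in 1d within cluster 0. It went from 89.2 (7 UMIs) to 296 in cluster 8 and from 348 to 676 in cluster 18. Txnip in neutrophils was likewise 0.492 at 1d as a class but 1.41, 1.06 and 0.911 within clusters 1, 4 and 5.

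The mix of classes, and the cells outside the 10 classes, also bore on the value of the whole library. Neutrophils held 64.5% of the Dusp1 and 63.8% of the Txnip UMIs of Ctrl cells, with 27.7% of all UMIs. The mesenchymal class held 50.9% of the Klf9 UMIs, with 10.3% of all UMIs in Ctrl. Over all cells the 7d ratio of Klf9 was 0.651. Over the cells of the 10 classes pooled it was 0.875, and 1.33 when those classes were weighted as in Ctrl. Part of the move therefore came from leaving out the other cells. Sgk1 stood at 0.349 over all cells, 0.513 over the 10 classes pooled and 0.673 at Ctrl weights. Dusp1 stood at 0.464 over all cells and 0.813 at Ctrl weights. Tsc22d3 stood at 1.82 and 4.09, Per1 at 1.37 and 2.15, Txnip at 1.74 and 2.53, Zbtb16 at 1.5 and 2.62, Ddit4 at 1.01 and 1.28. Fkbp5 moved little, from 2.42 to 2.14.

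**Figure D4:**
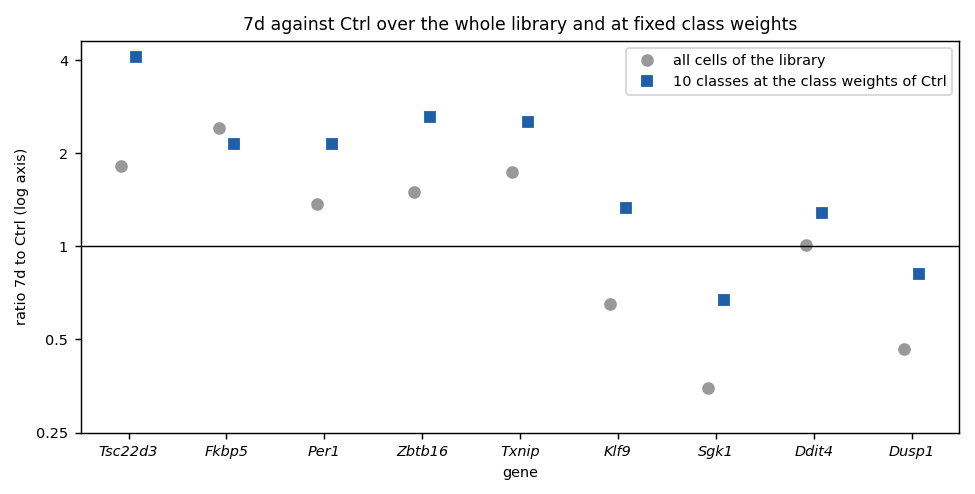
Ratio of 7d to Ctrl (log axis) for each of the 9 genes over all cells and with the 10 classes weighted by their Ctrl shares of UMIs. The weighted points leave out the cells outside the 10 classes, so the 2 points differ in cells as well as in weights. The Klf9 points lie on opposite sides of 1, at 0.651 and 1.33, and the Tsc22d3 points at 1.82 and 4.09.

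The receptor gene Nr3c1 itself was between 0.709 (B cells) and 1.33 (mesenchymal cells) of Ctrl at 7d, past 2-fold in no class. T cells had the highest level of the 10 classes in Ctrl, 234 CPM, and 191 in 7d. The mineralocorticoid receptor Nr3c2 had 23, 20 and 16 UMIs in the 3 libraries, too few for a ratio. Hsd11b1, which regenerates active corticosterone inside cells, was at 0.661 (0.597 to 0.731) in neutrophil precursors, and in the mesenchymal class 38 UMIs in Ctrl stood against 0 in 7d. Its ratio was 0.536 (0.303 to 0.922) in monocytes and macrophages, 0.604 (0.387 to 0.969) in stem and progenitor cells and 0.873 (0.744 to 1.02) in neutrophils. Hsd11b1 was at 1.39 (0.94 to 2.09) in NK cells and 1.22 (0.84 to 1.77) in T cells. The chaperone Hspa8 and the coactivator Ncoa1 had median ratios of 1.79 and 1.43. The list of receptor and ligand handling genes had 15 of 117 pairs higher (12.8%) and 8 lower (6.84%), both near the shares of all genes. That list includes Fkbp5 of the set, which was higher in 5 of 10 classes.

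Other genes of the pathway were split. A list of 45 further glucocorticoid-induced genes had 57 of 281 pairs higher at 7d (20.3%) and 46 lower (16.4%), both above the shares of all genes (10.7% and 8.88%). The mesenchymal class had 4 of 38 higher, where 16.9% of all its genes were, and 12 of 38 lower, where 12.3% were. Zfp36l2, which destabilises mRNA, had a median ratio of 2.46 and was above 1 in 10 of 10 classes. Rgcc, a cell cycle regulator, had a median of 2.28, but 0.227 in mesenchymal cells and 13.5 in dendritic cells. Metallothionein Mt1 had a median of 1.79. The iron-binding Lcn2 (0.299) and the decoy receptor Il1r2 (0.329), both also neutrophil genes, had the lowest medians.

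A list of 22 inflammatory genes that glucocorticoids repress had 68 of 135 pairs lower at 7d (50.4%, against 8.88% of the pairs of all genes) and 14 higher (10.4%). At 1d it had 53 of 131 lower (40.5%, against 6.32%). Il1b was lower in 10 of 10 classes, with a median ratio of 0.0882, and Il1a in 3 of 4. Tnf (median 1.26) and Ccl5 (1.65) stood above 1. The neutrophil genes S100a8 and S100a9 summed to 2367 CPM in Ctrl mesenchymal cells and 122 in those of 7d. They summed to 12991 and 315 in monocytes and macrophages and to 12382 and 143 in mast cells and basophils. In stem and progenitor cells the order was the reverse, 320 and 802. The part of free neutrophil RNA in the Il1b and Lcn2 ratios was not tested. Ratios of Dusp1 and Txnip, which Ctrl neutrophils held at 2380 and 298 CPM, carry the same limit in such classes, as does the Dusp1 ratio of 0.386 in mast cells and basophils.

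Lists of related programmes held both directions. FOXO targets, a list of 20, had 21 of 175 pairs higher at 7d (12%, near the 10.7% of all genes) and 22 lower (12.6%), with Klf2 at a median of 1.97 and Il7r at 0.582. Hypoxia and glycolysis genes had 9 of 153 higher (5.88%) and 25 lower (16.3%, against 8.88%), with the Txnip relative Arrdc4 at 0.611. Dissociation and immediate early genes had 41 of 250 higher (16.4%) and 30 lower (12%), with Klf4 at 2.59, Egr1 at 1.8 and Hspb1 at 0.154. Their summed level was 14568, 19266 and 25758 CPM in B cells of Ctrl, 1d and 7d, and 11562, 21110 and 17192 in T cells. In mesenchymal cells, where the Tsc22d3 ratio was largest, it was 20488, 26648 and 16512 CPM, lowest in 7d. In neutrophils it was 10920, 6998 and 9933 CPM. The part of tissue handling in the ratios of the 9 genes was not tested.

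Across the 39 points of class and library with at least 30 cells, the 9 genes formed 36 pairs with a median Pearson r of 0.30 (from -0.17 to 0.72). Klf9 with Sgk1 was highest, followed by Per1 with Txnip (0.69), Sgk1 with Dusp1 (0.64) and Tsc22d3 with Per1 (0.61). Fkbp5 with Dusp1 was lowest. Among 3239 other genes, Nr4a1 (0.86), Clcn4 (0.76), Gpat4 (0.76), Tob2 (0.75) and Eif4a2 (0.75) were most like Tsc22d3. Egr1 (0.83), Ddx3x (0.82), Fosb (0.82), Pttg1ip (0.80) and Smurf2 (0.80) were most like the mean of the 9. Nr4a1, Egr1 and Fosb stand in the immediate early list. These points share libraries, depth and class, so the values are descriptions.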

How the data were processed

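The deposited values were counts of UMIs per gene and cell for 3 libraries of jaw cells, per the file headers. The submitters' processing notes name CASAVA 1.8, Cell Ranger, Seurat and the build mm10, and the file headers give Cell Ranger as 6.1.1. Annotation release, alignment settings and the cell-calling rule were not given in the sources used here.

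Cells were kept with at least 500 UMIs, 250 genes and at most 15% mitochondrial UMIs. This removed 2435, 916 and 1247 barcodes of Ctrl, 1d and 7d, of which 2349, 756 and 1094 had mostly haemoglobin. Scrublet, in scanpy 1.11.5, removed 276 doublets of Ctrl (3.11%). In 1d and 7d its automatic threshold marked under 0.5%, so the highest scores were removed at 0.8% per 1000 barcodes (248 and 403). Counts were scaled to 10000 and logged. The top 2000 variable genes without the 9 gave 30 components, 15 neighbours and Leiden clusters at resolution 1, with no correction between libraries.

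To be named, a cluster had to show at least 3 markers of a class that reached a log2 ratio of 1 to the remaining cells and a detection of 10%. In addition, its 10 leading genes had to include 3 of that class's markers, or 2 where the markers averaged 0.95 in log2, unless they averaged 1.5 and 60% of them passed. Each ratio of counts per 1000000 UMIs was given a 95% Clopper-Pearson interval from the split of UMIs between the libraries, in classes with at least 30 cells and genes with at least 20 UMIs over both libraries. A 0 was set to 3 counts. No test was run, since each group was 1 library. The calculation was tested on simulated data. Gene positions are GENCODE's for GRCm38.

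The genes, the gene lists, the naming rules and most settings were chosen with earlier results of these data known. Every gene of the set was described in every class. From each list, up to 4 genes with the largest and 2 with the smallest median log2 ratio at 7d were eligible, among those measured in at least 3 classes, and the receptor genes were added. Likeness used log2(CPM + 10). Alternatives were 15 planned and 3 added after the data were seen (centring on the median gene, leaving out B cells and neutrophils, leaving out classes under 100 cells).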

Additional observations from a re-analysis of the deposited data

Results flagged for a closer look

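Opposite directions in 2 classes under the same comparison, past 2-fold on both sides, occurred for 5 combinations of gene and comparison, of which the extreme pair of classes is given. None of these differences could be tested, with 1 library a group. At 7d, the Ddit4 ratio of mesenchymal cells (2.57) was 7.80 times that of monocytes and macrophages (0.330). The Dusp1 ratio of mesenchymal cells at 7d (2.39) was 6.19 times that of mast cells and basophils (0.386, or 0.712 with cells thinned to 1000 UMIs). Thinning also took the mesenchymal ratios to 1.45 for Ddit4 and 1.62 for Dusp1. At 1d, the Txnip ratio of mast cells and basophils (2.94) was 5.97 times that of neutrophils (0.492), a class value that was not seen within its clusters. The Sgk1 ratio of B cells at 1d (2.49) was 5.51 times that of mast cells and basophils (0.451). The Ddit4 ratio of B cells at 1d (2.40) was 5.14 times that of neutrophils (0.467). The B cell values of Sgk1 and Ddit4 changed sign within cluster 0.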

How the results depend on the processing

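No paired analysis was possible because each group was 1 library and the labels give no replicate numbers. Each group being 1 library also left no replicate to leave out. Of 18 alternatives, 14 can change a ratio, and the others only remove genes or classes. The 14 gave 2227 values for single genes in single classes, of which 2012 stayed within their counting interval. Conventional dendritic cells, mast cells and basophils, mesenchymal cells, monocytes and macrophages, NK cells and stem and progenitor cells are 1 cluster each. For them the alternative within 1 cluster returns the main value, which counts among the 2012. In all, 87 values crossed a ratio of 1, in 25 of 82 pairs of gene and class at 1d and 17 of 85 at 7d. Of the 87, 80 began within 2-fold of Ctrl and 7 past it. Those 7, as log2 ratios, were Sgk1 in B cells at 1d (-0.62 with doublets kept, -0.45 at Leiden resolution 2, -0.45 within 1 cluster), Ddit4 there (-1.36, -1.64 and -1.95 in the same order) and Txnip in neutrophil precursors at 7d (-0.13 with cells thinned to 1000 UMIs). For B cells the cluster make-up of the class differed between the libraries; for Txnip the cause was not tested.

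The 31 pairs higher at 7d became 18 of 51 (35.3%) without classes under 100 cells, and the 5 lower pairs became 3 there and 3 at a minimum of 100 UMIs. The 14 pairs higher at 1d became 8 at Leiden resolution 2 and 7 without classes under 100 cells. The 7 lower pairs at 1d became 11 within 1 cluster, 4 without B cells and neutrophils and 3 without classes under 100 cells. Leaving out classes leaves fewer pairs. At 7d the pairs that crossed 1 included every gene of the set: Klf9 in mesenchymal cells, Fkbp5 in neutrophils, Tsc22d3 in mast cells and basophils, Txnip and Dusp1 in neutrophil precursors, Zbtb16 in stem and progenitor cells, and Per1, Sgk1 and Ddit4 in 3 or more classes each. Zbtb16 rested on few UMIs, from 0 to 49 in the classes named.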

Other observations

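Classes too small for a comparison also held genes of the set. The 25 endothelial cells of 7d had 648 CPM of Tsc22d3 (77 UMIs, interval 512 to 810), against 60 CPM in the 63 of Ctrl (18 UMIs, 35.6 to 94.9). Their Txnip stood at 884 CPM against 170, and their Fkbp5 at 152 against 70. Sgk1 stood at 581 against 607 CPM in the same cells. Klf9 was at 522 against 330 CPM, Per1 at 126 against 50, Ddit4 at 202 against 244 and Dusp1 at 1246 against 1087. Zbtb16 had 4 UMIs in 7d and 1 in Ctrl. The counting intervals of Ctrl and 7d overlap for all of these but Tsc22d3 and Txnip.

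B cell precursors, absent from the kept cells of Ctrl, had 82.3 CPM of Tsc22d3 in 1d and 108 in 7d, 44.8 and 94.9 of Txnip, 16.1 and 63.5 of Klf9, and 66.9 and 190 of Sgk1. Erythroid cells of 7d had 11.2 CPM of Tsc22d3 and 464 of Dusp1. Osteoclasts were found in Ctrl alone (225 cells), with 93.7 CPM of Tsc22d3, 585 of Sgk1 and 1072 of Dusp1. The 63 epithelial cells of Ctrl and 21 of 1d had 343 and 577 CPM of Klf9 and 688 and 680 of Sgk1.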
